A study of Tachysurus vachellii and Tachysurus fulvidraco x Tachysurus vachelli and Tachysurus fulvidraco with 9 samples.

Results

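The cluster of miR-221 and miR-222 was followed through small RNA profiles of juvenile catfish liver. Its members were 3 mature sequences whose names in the deposited table are bta-miR-221, dre-miR-222a-3p_R-1 and dre-miR-222a-5p, out of 728 distinct sequences in the table. The libraries came from 3 lines with 3 libraries each: the hybrid Huangyou-1 (P. fulvidraco female crossed with P. vachelli male), its paternal species P. vachelli and its maternal species P. fulvidraco. All fish were juveniles raised from artificially fertilized eggs incubated at 28 °C, 600 per line spread over 3 aquaria, and received no other treatment that the labels record. Whether a library stands for single fish, pooled fish or an aquarium is not stated in the labels, so the p-values measure the spread between these libraries only. The study's title concerns heterosis, the superiority of a hybrid over its parents, and the comparisons ask where the hybrid liver stands between the parental livers.

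In vertebrates miR-221 and miR-222 are encoded next to each other and transcribed together, and each precursor hairpin gives a sequence from its 3' arm and one from its 5' arm. The 3' arm sequences share their seed, the bases that choose target mRNAs, and in mammals they repress the cell cycle inhibitor p27Kip1 and the receptor KIT. Both are abundant in blood vessel endothelium, where they restrain the response to angiogenic signals in mammalian cells, and miR-221 guides endothelial tip cells in zebrafish. In mammalian liver they are known for their increase in regeneration and in hepatocellular carcinoma.

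The sequences are given first to show which members and close relatives share a seed and which do not. They are printed as the deposited table writes them, 5' to 3' with T for U, and capitals mark the seed, bases 2 to 8.
bta-miR-221: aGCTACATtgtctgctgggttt
dre-miR-222a-3p_R-1: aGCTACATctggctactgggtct
dre-miR-222a-5p: tGCTCAGTagtcagtgtagatcc
Related sequences outside the membership rule are these.
gga-miR-222b-3p_R-1: aGCTACATctgattactgggtca
cgr-miR-221-5p_R-4: aCCTGGCAtacaatgtagattt
bta-miR-221 and dre-miR-222a-3p_R-1 shared their first 8 bases and were identical at 11 of 22 positions compared from the 5' end. The seed GCTACAT stood on 3 of the 728 sequences, both of these and gga-miR-222b-3p_R-1, which is called miR-222b-3p here. miR-222b-3p differed from dre-miR-222a-3p_R-1 at 3 positions, G12A, C13T and T23A, counted from the 5' end with the miR-222a base first. The 5' arm of miR-221 had 2 names in the table, cgr-miR-221-5p_R-4 and ssa-miR-221-3p_R-1_1ss5AG. It is called miR-221-5p here, and the members are called miR-221, miR-222a-3p and miR-222a-5p. A further sequence named gga-miR-222b-5p_R-7 had the letters of bases 1 to 19 of miR-222a-5p, so it cannot be told apart from a shortened form of that member. ssa-miR-221-5p_L-3 had those of bases 4 to 22 of miR-221, although its name says 5' arm. mmu-mir-3074-2-p3_1ss22GC, a family of its own, shared the seed of miR-222a-5p and reached at most 1.16.

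Values are the authors' normalized read counts. Estimated reads behind a library numbered 5737468 to 6469200 in hybrid livers, 7076526 to 8578713 in P. vachelli livers and 6336148 to 7425489 in P. fulvidraco livers. Within a line the log2 values of 278 sufficiently abundant sequences correlated at Pearson's r of 0.984 to 0.997 between libraries. The hepatocyte miRNA ssa-miR-122-5p had the highest value in each library, at an average of 1800000 in hybrid livers, 2512000 in P. vachelli livers and 2011000 in P. fulvidraco livers. Each member sequence stood on 2 entries of the table with the same values, so that the value of 1 entry, used here, may hold only part of its reads. miR-222b-3p stood on 1 entry, so the size of a member's ratio to it may be affected. The fewest estimated reads behind a member value were 1041, for miR-222a-5p in hybrid library 3, with an exact Poisson 95% interval of 979 to 1106 that covers counting error only.

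The members were moderately abundant in all 3 lines. miR-222a-3p ranked 54th to 57th among all sequences in hybrid libraries, 41st to 46th in P. vachelli and 52nd to 57th in P. fulvidraco. miR-221 ranked 62nd to 65th in hybrid libraries, 47th to 49th in P. vachelli and 58th to 62nd in P. fulvidraco. miR-222a-5p ranked 96th to 102nd in hybrid libraries, 74th to 79th in P. vachelli and 94th to 97th in P. fulvidraco. Of the sum of the 3 members, miR-222a-3p held 49.6% to 51.3% in hybrid libraries, 49% to 52.8% in those of P. vachelli and 46.7% to 48.1% in those of P. fulvidraco.

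miR-222a-3p, the most abundant member, stood at 6821, 6829.9 and 7364 in hybrid livers, at 14443, 14907 and 12082 in P. vachelli livers and at 6675, 6353 and 7073 in P. fulvidraco livers. All P. vachelli libraries lay above every other library, and the hybrid and P. fulvidraco libraries overlapped. miR-221 stood at 5617, 5344 and 5785 in hybrid livers, at 10583, 10622 and 10228 in P. vachelli livers and at 6269, 5703.3 and 6054 in P. fulvidraco livers. It showed the same arrangement, with P. vachelli apart and the other lines overlapping. miR-222a-5p, the less abundant arm of its hairpin, stood at 1312, 1235 and 1204 in hybrid livers, at 2938, 2726 and 2363 in P. vachelli livers and at 1336, 1481 and 1592 in P. fulvidraco livers. Here every hybrid library was also below every P. fulvidraco library, by a narrow gap.

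**Figure D1:**
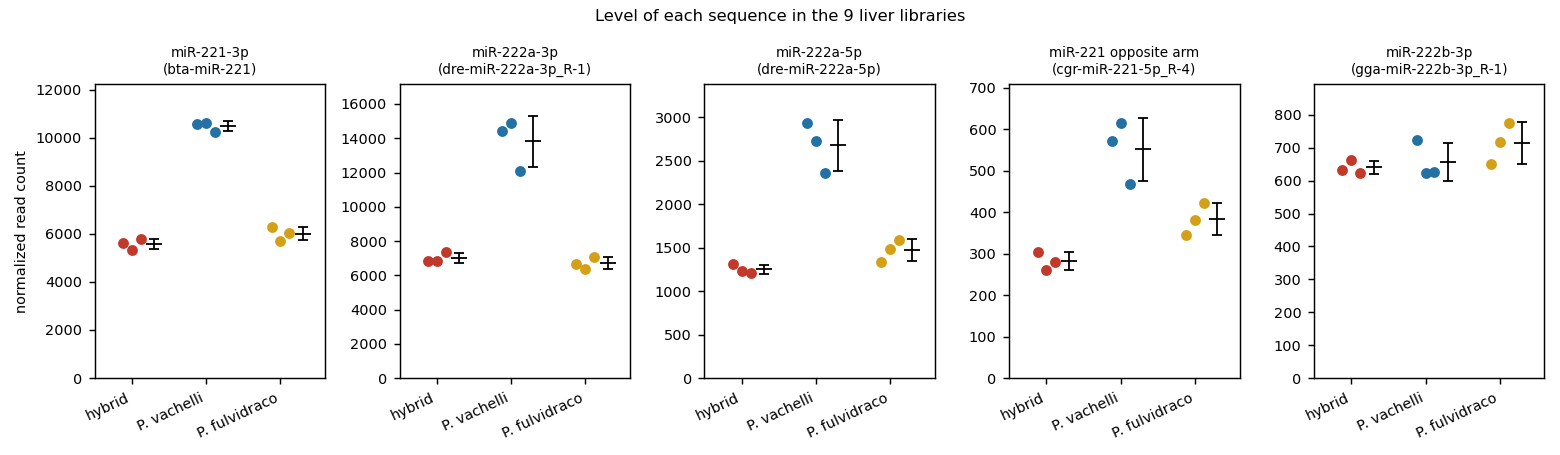
Normalized read count (vertical axes, from 0, one range per panel) of the 3 members, of the opposite arm of miR-221 and of miR-222b-3p in the hybrid, P. vachelli and P. fulvidraco; points are libraries and bars mean ± SD (n = 3). The members and the opposite arm of miR-221 are highest in P. vachelli, while miR-222b-3p lies between 624 and 776 in all lines.

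Hybrid against P. vachelli, the paternal species: all 3 members were lower in the hybrid. miR-222a-3p averaged 7005 ± 311 in the hybrid and 13811 ± 1515 in P. vachelli (SD, n = 3 each), a 0.509-fold level (95% interval 0.430 to 0.602; log2 fold change -0.97, SE 0.11, limma adjusted p = 0.000263). miR-221 averaged 5582 ± 222.7 in the hybrid and 10478 ± 216.8 in P. vachelli, a 0.533-fold level (0.463 to 0.613; limma adjusted p = 0.000154). miR-222a-5p averaged 1250.2 ± 55.5 in the hybrid and 2676 ± 290.3 in P. vachelli, a 0.469-fold level (0.386 to 0.570; limma adjusted p = 0.000263). Of all 278 sequences tested, 34.9% were called at an adjusted p under 0.05, 15.5% higher and 19.4% lower, and 25.9% were lower in the hybrid without overlap of libraries, as the members were. Ordered by p the members took places 4, 5 and 7 here. Their places were 19, 27 and 41 in P. vachelli against P. fulvidraco, and 107, 157 and 212 in the hybrid against P. fulvidraco. In bulk liver, fewer cells of a type and less RNA per cell cannot be told apart.

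P. vachelli against P. fulvidraco: all 3 members were higher in P. vachelli, where 51.4% of all sequences were called, 30.9% higher and 20.5% lower, and 34.5% were higher and 24.8% lower without overlap of libraries. The level in P. vachelli was 2.05-fold for miR-222a-3p (95% interval 1.74 to 2.43; limma adjusted p = 4.86e-05), 1.74-fold for miR-221 (1.52 to 2.01; limma adjusted p = 6.7e-05) and 1.82-fold for miR-222a-5p (1.496 to 2.21; limma adjusted p = 0.000371). P. fulvidraco averaged 6700.5 ± 361 of miR-222a-3p, 6009 ± 286 of miR-221 and 1470 ± 128 of miR-222a-5p (SD, n = 3).

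Hybrid against P. fulvidraco, the maternal species: 0 of 3 members passed the limma test, where 19.4% of all sequences were called, 12.9% higher and 6.47% lower. At an unadjusted p under 0.05 it was also 0 of 3, where 92 of all 278 passed. The absence of overlap seen for miR-222a-5p, lower in the hybrid, was shared by 17.3% of all sequences. The intervals of the fold ran from 0.884 to 1.24 for miR-222a-3p around 1.05, from 0.807 to 1.07 for miR-221 around 0.929, and from 0.701 to 1.04 for miR-222a-5p around 0.852 (limma adjusted p = 0.741, 0.479 and 0.253). In the order of levels P. vachelli came first for each member, while hybrid and P. fulvidraco, the neighbours at the low end, did not pass the test for a difference. The 3 pairwise comparisons share libraries, so their results are not independent of each other.

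On a scale where P. fulvidraco is 0 and P. vachelli is 1 in log2 level, the hybrid stood at 0.06 for miR-222a-3p, -0.13 for miR-221 and -0.27 for miR-222a-5p. All 3 members were below the mid-parent, the average of the log2 levels of the parents, where 18.7% of all sequences were called, 10.1% above and 8.63% below it. The log2 fold change was -0.45 for miR-222a-3p (SE 0.09, limma adjusted p = 0.0113), -0.51 for miR-221 (SE 0.08, adjusted p = 0.00308) and -0.66 for miR-222a-5p (SE 0.11, adjusted p = 0.00361). For each member 3 of 3 hybrid libraries lay below the mid-parent. The same held for miR-222b-3p, which was not called (limma adjusted p = 0.553), and the share over all sequences was not computed. For miR-222a-3p the call rested on hybrid library 2, without which the limma adjusted p was 0.0514, and on the scaling, since libraries set to equal totals gave -0.26 (adjusted p = 0.0985).

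**Figure D2:**
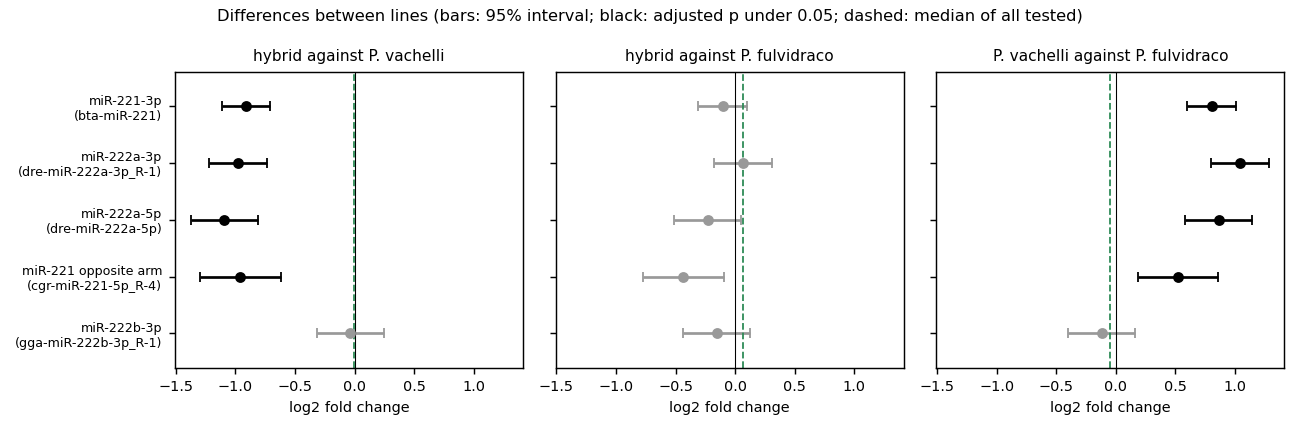
Log2 fold change (horizontal axis) of the members, the opposite arm of miR-221 and miR-222b-3p in the 3 pairwise comparisons; bars are 95% intervals, black marks an adjusted p under 0.05 and the dashed line is the median of all 278 sequences. The members lie between -1.09 and -0.91 in the hybrid against P. vachelli, between -0.23 and 0.06 against P. fulvidraco, and between 0.80 and 1.04 in P. vachelli against P. fulvidraco.

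P. vachelli libraries had the largest totals, and setting all totals equal moved the median log2 fold change of all sequences to 0.34 in the hybrid against P. vachelli, from -0.01 in the deposited scaling. With equal totals the members still lay below it, at -0.63 for miR-222a-3p, -0.57 for miR-221 and -0.75 for miR-222a-5p (limma adjusted p = 0.00312, 0.00216 and 0.00324). In P. vachelli against P. fulvidraco the median moved to -0.34 and the members stood at 0.74, 0.50 and 0.56 (adjusted p = 0.000836, 0.00254 and 0.00857).

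Ratios of sequences within a library do not depend on that scaling. They were tested by an exact permutation of the 9 libraries among the lines, in which the smallest possible p is 0.00357, and adjusted over 4 ratios. Pairs of lines with 3 libraries each cannot go below 0.1 in an exact two-sided test, so pairs are described by whether their libraries overlap.

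The arm ratio of miR-222a, miR-222a-3p over miR-222a-5p, was 5.2, 5.53 and 6.12 in hybrid libraries, 4.92, 5.47 and 5.11 in P. vachelli and 4.997, 4.29 and 4.44 in P. fulvidraco. Every hybrid library exceeded every P. fulvidraco library, while P. vachelli overlapped with both. On average the ratio was 5.61 ± 0.464 in hybrid livers, 5.16 ± 0.28 in P. vachelli livers and 4.57 ± 0.371 in P. fulvidraco livers (SD, n = 3 each), and the lines did not pass the test (exact permutation p = 0.0321, adjusted p = 0.0643). Without P. fulvidraco library 1 the adjusted p was 0.0357, and without any other single library it was 0.05 to 0.146. The ratio of miR-221 to its own 5' arm, a comparison added after the values were seen, was 18.4, 20.5 and 20.7 in hybrid livers, 18.5, 17.3 and 21.9 in P. vachelli livers and 18.2, 15 and 14.4 in P. fulvidraco livers. It too was lowest on average in P. fulvidraco and overlapped between P. vachelli and both other lines (exact permutation p = 0.111, also 0.111 adjusted over the 2 added ratios). Without P. fulvidraco library 1 this adjusted p was 0.0464, and without any other single library it was 0.0893 to 0.261.

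Set among all miRNAs with both arms tested, 52 in number, neither hairpin was called. In limma fits across these arm ratios, 7.69% were called in the hybrid against P. vachelli, 3.85% against P. fulvidraco and 11.5% in P. vachelli against P. fulvidraco. The difference in log2 arm ratio of miR-222a was 0.12 (95% interval -0.19 to 0.43; adjusted p = 0.627), 0.29 (-0.01 to 0.60; adjusted p = 0.293) and 0.18 (-0.13 to 0.48; adjusted p = 0.456) in the same comparisons. That of miR-221 was 0.05 (-0.30 to 0.40; adjusted p = 0.858), 0.33 (-0.02 to 0.68; adjusted p = 0.293) and 0.28 (-0.07 to 0.63; adjusted p = 0.245). For comparison, miR-33, a regulator of cholesterol export in mammals, moved by -1.95 in P. vachelli against P. fulvidraco (adjusted p = 0.000632) and miR-26a by 1.57 in the hybrid against P. fulvidraco (adjusted p = 0.0113). These intervals extend to 0.68 on the log2 scale, so the arms are not shown to move by one factor. Hybrid and P. fulvidraco libraries did not overlap for either hairpin, which held for 26.9% of the 52 arm ratios. P. vachelli overlapped with P. fulvidraco for both, where 38.5% did not overlap.

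**Figure D3:**
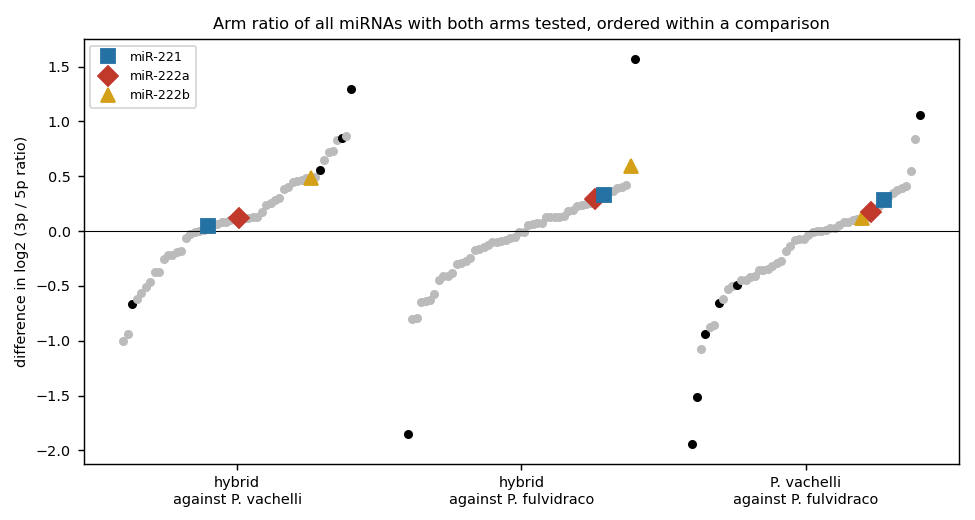
Difference in the log2 ratio of 3p to 5p arm (vertical axis) for the 52 miRNAs with both arms tested, ordered from low to high within each comparison; black points have an adjusted p under 0.05. miR-222a (diamond) and miR-221 (square) lie at 0.05 to 0.33; the 5p sequence of miR-222b (triangle) may be a shortened miR-222a-5p.

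The proportion of the cluster's 3' arms also differed little in size. miR-221 over miR-222a-3p was 0.823, 0.782 and 0.786 in hybrid livers, 0.733, 0.713 and 0.847 in P. vachelli livers and 0.939, 0.898 and 0.856 in P. fulvidraco livers. P. fulvidraco libraries lay above all others, and hybrid and P. vachelli libraries overlapped (exact permutation p = 0.05, adjusted p = 0.0667). How many ratios of other sequences set a line apart in this way was not computed. Without P. vachelli library 3 the adjusted p was 0.00714, and without any other single library it was 0.0952 to 0.154.

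miR-222b-3p, which carries the same seed, did not share the pattern of miR-222a-3p. It stood at 632, 664 and 624 in hybrid livers, at 724, 624 and 626 in P. vachelli livers and at 650.1, 717 and 776 in P. fulvidraco livers, with all lines overlapping. Its fold was 0.975 in the hybrid against P. vachelli (95% interval 0.802 to 1.19; limma adjusted p = 0.839), 0.898 against P. fulvidraco (0.739 to 1.09; adjusted p = 0.449) and 0.921 in P. vachelli against P. fulvidraco (0.758 to 1.12; adjusted p = 0.447). With equal totals the last value became -0.42 on the log2 scale (adjusted p = 0.0253), lower in P. vachelli, and the first changed sign to 0.31 (adjusted p = 0.0978). The ratio of miR-222a-3p to miR-222b-3p, also added after the values were seen, was 10.8, 10.3 and 11.8 in hybrid livers, 19.95, 23.9 and 19.3 in P. vachelli livers and 10.3, 8.86 and 9.11 in P. fulvidraco livers. P. vachelli libraries lay far above both other lines, and the hybrid just above P. fulvidraco (exact permutation p = 0.00357, the smallest the design allows; 0.00714 adjusted over the 2 added ratios). The adjustment does not cover the choice of this ratio with its values known. The nearest hybrid and P. fulvidraco libraries stood at 10.29 and 10.27. How many other ratios separate the lines was not computed. In level, 36.3% to 59.4% of all sequences did not overlap in a pair of lines.

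miR-221-5p, the minor arm of miR-221, was also highest in P. vachelli, at a lower level than the members. It stood at 305, 261 and 279.9 in hybrid livers, at 571, 615 and 467 in P. vachelli livers and at 344, 381 and 421 in P. fulvidraco livers, and no lines overlapped. Among all sequences 46.8%, 36.3% and 59.4% did not overlap in the hybrid against P. vachelli, the hybrid against P. fulvidraco and P. vachelli against P. fulvidraco. Its log2 fold change was -0.96 in the hybrid against P. vachelli (SE 0.15, limma adjusted p = 0.000901), -0.44 against P. fulvidraco (SE 0.15, adjusted p = 0.0701) and 0.52 in P. vachelli against P. fulvidraco (SE 0.15, adjusted p = 0.0163). The last call was lost with equal totals (0.22, adjusted p = 0.294), without P. vachelli library 2 (adjusted p = 0.0713) and without P. fulvidraco library 1 (0.0529). It lay below the mid-parent by a log2 fold change of -0.70 (adjusted p = 0.00677). On the log2 scale between the parents the hybrid stood at -0.84 for it, further below P. fulvidraco than for any member.

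**Figure D4:**
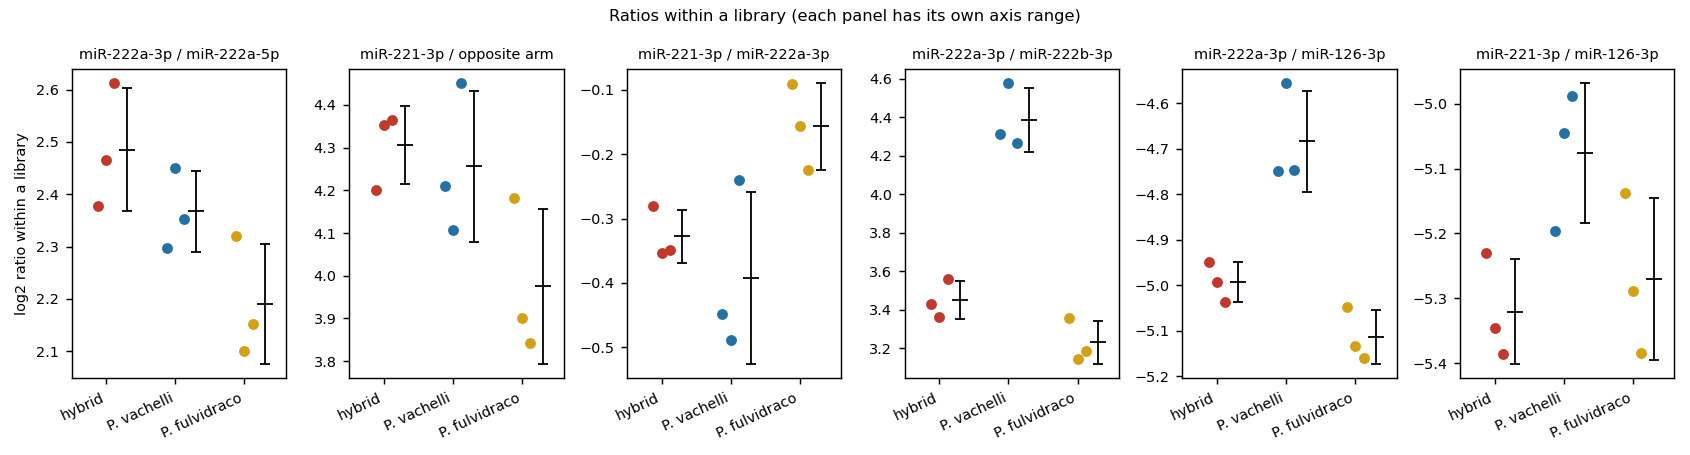
Log2 ratio of 2 sequences within a library (vertical axes, one range per panel) in the hybrid, P. vachelli and P. fulvidraco; points are libraries and bars mean ± SD (n = 3). The ratio of miR-222a-3p to miR-222b-3p separates P. vachelli, at 4.27 to 4.58, from the hybrid, at 3.36 to 3.56, and P. fulvidraco, at 3.14 to 3.36.

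Within lines, the deviations of the members from their line means were compared over the 9 libraries, by permutation within lines and with adjustment over 3 pairs. miR-221 and miR-222a-3p gave Pearson's r = 0.598 (exact permutation p = 0.0556, adjusted 0.167) and Spearman's rho = 0.667 (p = 0.0694, adjusted 0.208), and r was 0.598 again without the 2 libraries farthest from the median. With equal totals, however, r of this pair was 0.742 (exact permutation p = 0.231, adjusted 0.347) and -0.15 without 2 libraries, so that the relation then rested on those libraries. miR-222a-3p and miR-222a-5p gave r = 0.599 (exact permutation p = 0.269, adjusted 0.403) and rho = 0.433 (p = 0.421, adjusted 0.632), with r = 0.306 without 2 libraries. miR-221 and miR-222a-5p gave r = -0.01 (exact permutation p = 0.986, also 0.986 adjusted) and rho = -0.05 (p = 0.931, also 0.931 adjusted), with r = -0.02 without 2 libraries. No pair passed the test.

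The profiles most like the mean of the centred members, by Pearson's r of log2 values over the 9 libraries, were those of ssa-miR-126-3p (r = 0.978), fru-miR-103 (0.967), dre-miR-27b-3p_R-1 (0.962), dre-miR-27b-5p_R-1 (0.944), ccr-miR-192_R+1 (0.928) and ssa-miR-130d-2-5p_2ss9AT13CT (0.927). Over all 278 sequences the median r was 0.03, and 21 exceeded 0.9, the members included. These r describe profiles that share libraries and lines, so that any sequence high in P. vachelli alone comes near. miR-126 maintains vessel integrity, miR-103 acts on insulin signalling in mammals, and miR-192 is a liver and gut miRNA. fru-miR-103 averaged 23670 ± 650 in hybrid livers, 36200 ± 1010 in P. vachelli livers and 22380 ± 972 in P. fulvidraco livers. ccr-miR-192_R+1 averaged 35880 ± 2020 in hybrid livers, 60910 ± 3790 in P. vachelli livers and 32690 ± 3460 in P. fulvidraco livers. dre-miR-27b-3p_R-1 and dre-miR-27b-5p_R-1, opposite arms of one hairpin, had log2 fold changes of -0.71 and -0.77 in the hybrid against P. vachelli. These sequences were picked for profiles like those of the members. A lower level in the hybrid than in P. vachelli therefore follows from the choice and is not a separate result.

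**Figure D5:**
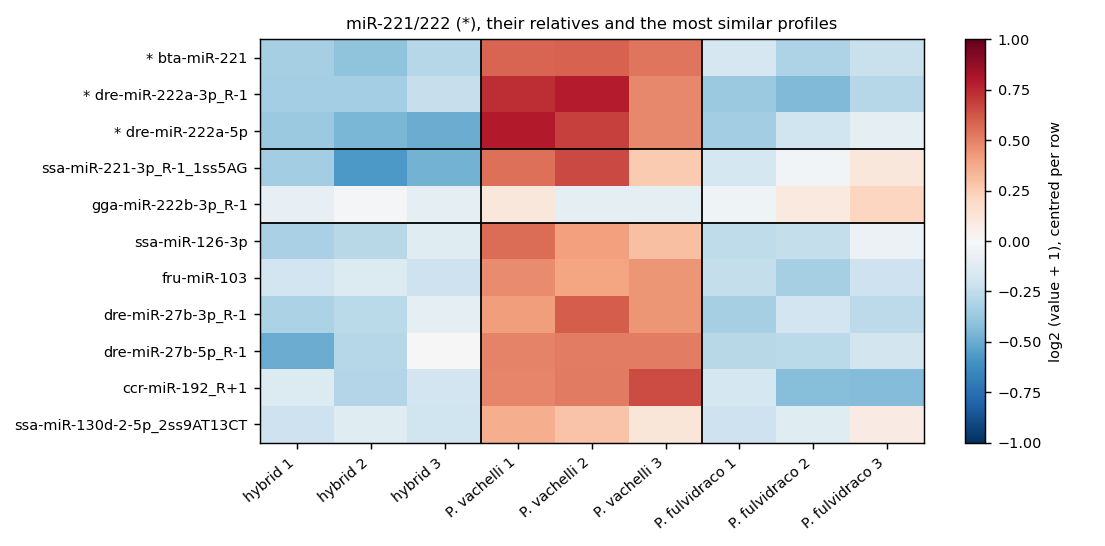
Log2 of the value plus 1, centred per row (colour scale from -1 to 1), in the 9 libraries ordered as hybrid, P. vachelli and P. fulvidraco; stars mark the members, followed by miR-221-5p (under its first name), miR-222b-3p and the 6 most similar profiles. Members lie at 0.48 to 0.79 in the 3 P. vachelli libraries, and miR-222b-3p lies between -0.10 and 0.21 in all libraries; among the similar profiles ssa-miR-130d-2-5p_2ss9AT13CT is the palest, with 0.12 in P. vachelli library 3.

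Because miR-126 is the defining endothelial miRNA, its values stand beside those of the cluster. The 6 miR-126 sequences of the table summed to 217290 to 248850 in hybrid libraries, 335530 to 396620 in P. vachelli and 227330 to 258730 in P. fulvidraco. Of 5 tested, 4 were called lower in the hybrid against P. vachelli, 0 were called against P. fulvidraco and 5 were called higher in P. vachelli against P. fulvidraco. In these comparisons 19.4% of all sequences were called lower, 19.4% were called in either direction and 30.9% were called higher. The median log2 fold change of the 5 was -0.68 in the hybrid against P. vachelli and 1.21 in P. vachelli against P. fulvidraco. The difference of miR-222a-3p between P. vachelli and the other lines was larger than that of ssa-miR-126-3p, the most abundant of them, but not than that of ssa-miR-126-3p_1ss18AG, which stood at -1.01 and 1.28 in the same comparisons. The ratio of miR-222a-3p to ssa-miR-126-3p was 0.0324, 0.0314 and 0.0304 in hybrid livers, 0.0372, 0.0425 and 0.0372 in P. vachelli livers and 0.0302, 0.0285 and 0.028 in P. fulvidraco livers, with no overlap between any lines (exact permutation p = 0.00357, the smallest the design allows; adjusted p = 0.0143). The nearest hybrid and P. fulvidraco libraries differed little, at 0.0304 and 0.0302. How many other sequences separate the lines by this ratio was not computed. In level, 36.3% to 59.4% of all sequences did not overlap in a pair of lines. For miR-221 the ratio to ssa-miR-126-3p averaged 0.0251 ± 0.00142 in hybrid livers, 0.0297 ± 0.00219 in P. vachelli livers and 0.026 ± 0.00226 in P. fulvidraco livers (SD, n = 3 each), and the lines did not pass the test (exact permutation p = 0.0893, also 0.0893 adjusted). Hybrid libraries lay below P. vachelli for it, and P. fulvidraco overlapped with both.

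Lists of other miRNA families gave the setting, described by counts and medians only. Of 27 tested sequences of families known from endothelium and vessels (miR-126 included, the cluster left out), 11 were lower and 0 higher in the hybrid against P. vachelli, where 19.4% of all sequences were called lower and 15.5% higher, with a median log2 fold change of -0.43 beside -0.01 over all sequences. Against P. fulvidraco, where 12.9% of all were called higher and 6.47% lower, 1 was higher and 1 lower, with a median of 0.03 beside 0.06 over all, and in P. vachelli against P. fulvidraco 14 were higher and 0 lower, where 30.9% of all were called higher and 20.5% lower, with a median of 0.43 beside -0.05. Arms and variants of one hairpin count separately in this list. The miR-126 sequences above made up 4 of the 11 lower and 5 of the 14 higher. Both arms of miR-27b, picked above for likeness to the members, were also among them. With equal totals, 8 of the 27 were lower and 2 higher in the hybrid against P. vachelli (median -0.10 beside 0.34 over all). Of all 278, 27 were then lower and 87 higher. In P. vachelli against P. fulvidraco 9 were then higher and 1 lower, where 54 of all 278 were higher and 87 lower. The most abundant of them after ssa-miR-126-3p, xtr-miR-92a_R+1 of the miR-17-92 cluster, averaged 31280 ± 5080 in hybrid livers, 29350 ± 3100 in P. vachelli livers and 33830 ± 6300 in P. fulvidraco livers and was not called in any pair.

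Markers of other cells are given by the same counts. In the hybrid against P. vachelli, where 15.5% of all sequences were called higher and 19.4% lower, the erythroid list had 5 of 8 tested sequences higher and 0 lower, with sums of 58720 to 97611 in hybrid libraries and 37915 to 42304 in P. vachelli. Of the smooth muscle and fibroblast list 2 of 12 were lower, with sums of 301030 to 366360 in hybrid libraries and 381870 to 427090 in P. vachelli, but with equal totals 2 were higher and 0 lower, where 87 of all 278 were higher and 27 lower. In the hepatocyte list 1 of 4 was lower, with sums of 1763500 to 1884900 in hybrid libraries and 2287600 to 2787600 in P. vachelli. Its median log2 fold change was -0.23, and 0.11 with equal totals, beside 0.34 over all sequences, with 1 of 4 still lower. Leukocyte miRNAs had 2 of 7 higher, with sums of 14531 to 15288 in hybrid libraries and 13078 to 14145 in P. vachelli. Skeletal and heart muscle miRNAs had 3 of 6 higher and 2 lower, and pancreas and neural miRNAs, with 3 tested each, had 0 called by limma, although 2 pancreas sequences were higher with equal totals. In P. vachelli against P. fulvidraco, where 30.9% of all sequences were called higher and 20.5% lower, 8 of 12 smooth muscle and fibroblast sequences were higher and 0 lower, with sums of 381870 to 427090 in P. vachelli and 293650 to 343290 in P. fulvidraco, and 3 were higher with equal totals. Erythroid sequences had 2 of 8 higher and 5 lower there, with sums of 37915 to 42304 in P. vachelli and 78974 to 94637 in P. fulvidraco. Skeletal and heart muscle had 2 of 6 higher and 3 lower, hepatocyte 1 of 4 higher, leukocyte 2 of 7 lower, neural 2 of 3 lower and pancreas 0 called. With equal totals 0 of 4 hepatocyte sequences were called between the parents. In the hybrid against P. fulvidraco, where 12.9% were called higher and 6.47% lower, 2 of 8 erythroid, 2 of 12 smooth muscle and fibroblast, 1 of 7 leukocyte and 1 of 6 muscle sequences were higher, 2 of 3 neural sequences were lower, and hepatocyte and pancreas had 0 called. miR-208 had no sequence in the table, and every other marker family had at least 1. The part of these cells in the result was not tested.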

How the data were processed

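Liver small RNA was converted to libraries (TruSeq Small RNA kit), read on a HiSeq 2500 and filtered with ACGT101-miR, per the labels' protocols. The deposited signal is a normalized read count per library and entry, per the file headers; its formula, the miRNA reference and the genome build: not given in the sources used here. Genome positions were not assigned. Of 888 entries, those with one sequence were merged to 728 sequences. The worth of 1 read, from low values of unshared sequences, was 0.898 to 1.19, and 85.6% to 93.9% of these values lay within 0.1 read of a whole number; shared sequences came in fractions of a read, so the values were not treated as counts. Estimated reads of a library divide its sum over all entries by that worth, and those of a member divide its value on 1 entry. limma 3.58.1 (R 4.3.3, trend, two-sided) was fitted to log2 of the value plus 1 in all 9 libraries, for 278 sequences reaching 10 in 3 libraries, with Benjamini-Hochberg adjustment per comparison and a threshold of 0.05, and was tested on simulated data. Fold changes are on that scale. Ratio tests used the same pseudocount, printed linear ratios none. Arm pairs took the most abundant 3p and 5p sequence per miRNA name. Named miRNAs are the members, entries sharing their name, sequence or seed, the 6 most similar profiles, up to 3 abundant sequences per list and the top arm ratios. Members and lists were chosen with earlier results of these data known. A further list of miRNA families is not reported here. Alternatives covered scaling, pseudocount, filter, trend, replicate block, groups fitted, entries, family sums, mid-parent and each library left out. Python 3.11.15, scipy 1.17.1 and matplotlib 3.10.9 were used.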

Additional observations from a re-analysis of the deposited data

How the results depend on the processing

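Of 249 values of a member in a comparison under an alternative with a test, 247 kept direction and side of the threshold. Both exceptions, and the moved values, concerned the mid-parent: miR-222a-3p lost its call with equal totals (-0.26, adjusted p = 0.0985) and without hybrid library 2 (adjusted p = 0.0514), and an arithmetic mid-parent, which has no test, moved it to -0.55 and miR-222a-5p to -0.73, with miR-221 at -0.56. With single libraries left out, miR-222a-3p ran from -0.50 to -0.43 against the mid-parent.

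Replicate numbers did not pair the libraries: 1 of 9 correlated best with one of its own number, at r of -0.421 to 0.162 for the same number. With the replicate block the ratio of miR-222a-3p to ssa-miR-126-3p kept its size (0.43) but not its call (adjusted p = 0.111), as did its ratio to miR-222b-3p (1.16, adjusted p = 0.0556). Both were at 0.0278 before adjustment, the smallest p an exact permutation within blocks allows here, so that these losses say nothing about the size of the differences. With the block 30 sequences departed from the mid-parent; the block changed no call of a member.

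Without single libraries, the gap between the highest and lowest line ran from 0.19 to 0.31 for the log2 ratio of miR-221 to miR-222a-3p, from 0.23 to 0.36 for the arm ratio of miR-222a and from 0.26 to 0.43 for that of miR-221. The count of sequences called in the hybrid against P. fulvidraco, 54, was 34 with a filter at 100 and 31 (without P. fulvidraco library 3) to 59 with single libraries left out. In P. vachelli against P. fulvidraco, 93 were called with that filter. Departures from the mid-parent, 52, numbered 21 with no filter, 81 with every entry, and 18 to 58 with single libraries left out: 18 without hybrid library 2, 29 without P. vachelli library 2, and 28 and 32 without P. fulvidraco libraries 2 and 3. A changed filter also changes how many sequences are tested. With every entry, a sequence on several entries counts more than once. Counts under these settings are therefore not on the same base. Equal totals turned 43 higher and 54 lower into 87 and 27 in the hybrid against P. vachelli, 86 and 57 into 54 and 87 between the parents, and 28 and 24 into 56 and 8 at the mid-parent.

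miR-222b-3p, not called, changed sign in the hybrid against P. vachelli with equal totals (0.31), without the most abundant sequence in the totals (0.25) and without P. vachelli library 1 (0.0347, in a range from -0.073 over single libraries), and against the mid-parent with both totals (0.0961 and 0.0434). In the hybrid against P. fulvidraco, values near 0 that were not called also changed sign: ssa-miR-126-3p (0.00714 without P. fulvidraco library 3, in a range from -0.115 over single libraries), dre-miR-27b-3p_R-1 (-0.0284 without hybrid library 3, in a range to 0.0846) and dre-miR-27b-5p_R-1 (0.0202 with equal totals, 0.0964 without hybrid library 1 and 0.00907 without P. fulvidraco library 3, in a range from -0.151). The within-line r of miR-221 and miR-222a-5p was 0.402 with equal totals and 0.017 with median ratios. The cause of these shifts was not tested. The least deeply read member value, miR-222a-5p in hybrid library 3, has a counting interval that reaches 5.98% below and 6.26% above it, so a difference of that size in one library is not resolved.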
